A study of Mus musculus with 8 samples.

Results

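The visual cycle is the set of reactions that returns retinal to the form that opsins bind after light has changed it. Photoreceptors reduce the released all-trans-retinal to retinol, the retinal pigment epithelium (RPE) behind them esterifies it, isomerizes it and oxidizes it to cis-retinal, and binding proteins carry the retinoids between the cells. Mueller glia hold a part of the same machinery. Here 10 genes of the cycle were chosen by name, of which 9 were found in a table of 18058 genes and 1 was not analysed here. By where they are known to act, Lrat, Rdh5 and Stra6 were taken as RPE genes, Rgr and Rlbp1 as genes of RPE and Mueller glia, and Rdh8, Rdh12, Abca4 and Rbp3 as photoreceptor genes.

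The study sequenced total RNA from adult mouse retinae, with 4 libraries for each genotype that carry the letters A to D. The wild-type (WT) mice were of the inbred strain 129S2/SvPasCrl, and the quadruple knockout (KO) mice lack Bcan, Ncan, Tnc and Tnr, the genes of the matrix proteins brevican, neurocan, tenascin-C and tenascin-R, all combined by crossing mice with single knockouts. Retinae were pooled before RNA was extracted, and no label says how many animals a library holds, so p-values measure the spread between these libraries. A value is a normalized count, an estimated read count that the authors divided by a factor for each library. The labels were checked on the targeted genes. Ncan fell from between 569 and 789 normalized counts in WT to at most 0.853 in KO, Bcan from between 197 and 327 to between 11.5 and 22.1, and Tnr from between 5578 and 6317 to between 2374 and 2580. Tnc overlapped, with 881 to 1592 in WT and 1024 to 1249 in KO, so the level of its mRNA does not separate the genotypes. The normalized counts summed to between 36134200 in KO D and 42201700 in WT B. WT B and WT C stood apart from the other 6 libraries, with mitochondrially encoded mRNA at 0.402% and 0.341% of the total against 1.28% to 1.64%, and with signal recognition particle RNA at 19.3% and 14.8% against 6.82% to 8.69%.

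No visual cycle gene passed the test between the genotypes. In limma with Benjamini-Hochberg adjustment over 17636 genes, 0 of 9 were called at an adjusted p under 0.05, where 0.437% of all genes were called. At an unadjusted p under 0.05 there was 1 of 9 against 16.6% of all genes, and 1 of 9 had 4 values of one genotype all above the 4 of the other, against 9.74% of all genes. Both counts are Rdh8, the all-trans-retinol dehydrogenase of photoreceptor outer segments, which was higher in the KO by 0.38 on the log2 scale. The shares at an unadjusted p moved with single libraries. Without WT D there were 3 of 9 beside 6045 of 17616 genes, without WT A 3 of 9 beside 4688 of 17628, without WT C 2 of 9 beside 1518 of 17645, and without WT B 1 of 9 beside 1362 of 17630. Without KO A, KO B, KO C or KO D in turn there was 1 of 9, beside 1394 to 1830 genes. The median log2 fold change of the 9 genes was 0.06, beside -0.00018 over all genes tested.

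The largest differences among these genes lay between libraries of 1 genotype. WT D held the highest level of Lrat, Rdh5, Stra6 and Rgr among the 8 libraries, and WT A the lowest of each. The coefficient of variation over the 4 WT libraries was 76.6% for Lrat, 70.4% for Rgr, 45.1% for Rdh5 and 43.6% for Stra6. It was between 8.67% and 16.2% for Rlbp1 and the 4 photoreceptor genes.

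**Figure D1:**
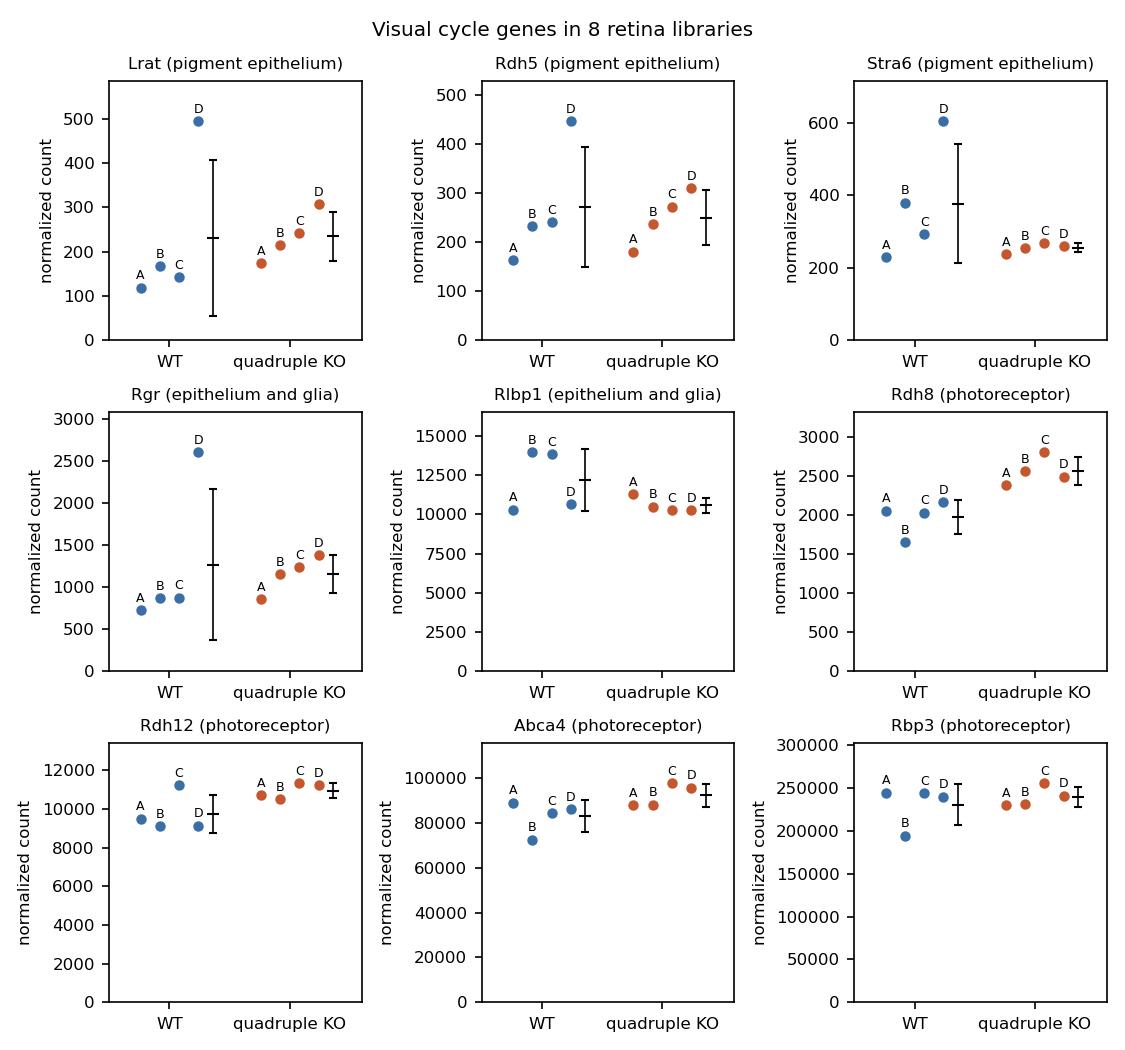
Normalized counts of 9 visual cycle genes in each library (points, lettered A to D), with the mean and SD of each genotype (n = 4) as a bar beside the points and every axis starting at 0. WT D stands above the other WT libraries in Lrat, Rdh5, Stra6 and Rgr, and the KO values of Rdh8 all lie above its WT values.

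To show the sequence in front of these genes, the 150 bases upstream of the start of the canonical transcript are given 5′ to 3′ on the strand of the gene, from GRCm39 with GENCODE M39 starts. They are shown for the pair of photoreceptor genes with the highest levels, for Rdh8, and for Rgr and Rdh5. Lrat, whose level followed that of Rgr more closely than Rdh5 did, is not shown. Capitals mark a match to TAATCC, the core that CRX and OTX2 bind, or to CATGTG, an E-box form bound by MITF and its relatives, or to the reverse complement of either.
Rbp3, chr14:33675810-33675959, plus strand: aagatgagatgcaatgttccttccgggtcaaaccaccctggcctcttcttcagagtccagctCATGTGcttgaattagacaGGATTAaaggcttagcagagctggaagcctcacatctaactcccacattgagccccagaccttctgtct
Abca4, chr3:121837942-121838091, plus strand: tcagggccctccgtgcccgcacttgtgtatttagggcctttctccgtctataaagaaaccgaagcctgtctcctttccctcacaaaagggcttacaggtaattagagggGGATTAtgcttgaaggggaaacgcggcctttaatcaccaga
Rdh8, chr9:20729649-20729798, plus strand: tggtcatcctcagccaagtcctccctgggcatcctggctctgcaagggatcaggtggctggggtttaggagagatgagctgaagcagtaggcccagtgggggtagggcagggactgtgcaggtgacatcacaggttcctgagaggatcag
Rgr, chr14:36770922-36771071, minus strand: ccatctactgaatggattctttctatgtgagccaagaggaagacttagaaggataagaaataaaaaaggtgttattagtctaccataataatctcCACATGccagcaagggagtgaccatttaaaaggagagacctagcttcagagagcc
Rdh5, chr10:128755438-128755587, minus strand: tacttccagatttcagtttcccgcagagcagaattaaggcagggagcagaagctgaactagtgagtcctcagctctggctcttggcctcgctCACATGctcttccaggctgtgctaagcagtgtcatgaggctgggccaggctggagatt

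In windows of 250 bases upstream of the start, searched on both strands, TAATCC was found in 3 of the 9 genes and in 1522 of 21757 promoters (6.995%). Abca4 held it 41 to 36 bases before the start, Rbp3 69 to 64 bases before it, both on the opposite strand, and Rgr 217 to 212 bases before it on the strand of the gene, outside the stretch shown. CATGTG was found in 3 of the 9 genes, Rbp3, Rdh5 and Rgr, and in 10.5% of all promoters. In Rdh5 it lay 58 to 53 bases and in Rgr 55 to 50 bases before the start, both on the opposite strand. CACGTG, the palindromic E-box, was found in 0 of the 9 and in 6.26% of all promoters. Lrat, whose level followed that of Rgr most closely among the 9, held no match to any of these motifs, and neither did Stra6. A match is a description of letters in a window, and these data hold no measure of binding.

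Levels between genes were compared per kilobase of merged exon. Rbp3, which encodes the retinoid carrier between photoreceptors and RPE, had a mean of 44355 normalized counts per kb over the 8 libraries, and Abca4, the transporter that clears retinal adducts from the disc membrane, had 7287. Rdh12, a reductase of photoreceptor inner segments, and Rlbp1, which binds cis-retinoids in RPE and Mueller glia, followed with 3439 and 3175 per kb. Their ranges over the libraries, 3025 to 3771 and 2864 to 3897, overlap. Rdh8 had a mean of 1616 per kb and Rgr, an opsin that binds all-trans-retinal, 254 per kb. The order ended with Rdh5 at 49.9, Lrat at 43.4 and Stra6 at 37.5 per kb, whose ranges overlap. With the length of the canonical transcript in place of the merged exons, Stra6 stood above Lrat, and Rdh5 had 162 per kb (102 to 278), which no longer overlapped Lrat (22.2 to 92.3) and overlapped Rgr (172 to 616). Of the merged exon bases of Rdh5, 3692 (70.7%) are also exon of Bloc1s1 on the same strand, so reads may have been split between them and the level of Rdh5 is uncertain.

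Lrat, the acyltransferase that makes retinyl esters (chromosome 3, 82799886 to 82811288, minus strand), had 119, 167, 143 and 494 normalized counts in WT A to D and 174, 215, 242 and 307 in KO A to D. All 4 KO values lay above 3 of the WT values and below WT D. The means were 231 ± 177 in WT and 234 ± 55.7 in KO (SD, n = 4), and the log2 fold change was 0.24 with an SE of 0.40 (limma adjusted p = 0.728). Without WT D the log2 fold change was 0.69 with an unadjusted p of 0.00783 and a limma adjusted p of 0.0789. It was 0.0116 without WT A, 0.0991 without WT C and 0.11 without KO D, so its size changed with several single libraries.

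Rdh5, the dehydrogenase that makes cis-retinal in the RPE (chromosome 10, 128749385 to 128759341, minus strand), had 164, 232, 240 and 446 normalized counts in WT A to D. The KO libraries had 180, 237, 272 and 310, all within the WT range. Its log2 fold change was -0.04 with an SE of 0.29 (limma adjusted p = 0.936) and 0.23 without WT D. The direction for Rdh5 is thus not set by these libraries.

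Stra6, the receptor through which the RPE takes up retinol from its binding protein in blood (chromosome 9, 57970967 to 58063543, plus strand), had 229, 380, 294 and 606 normalized counts in WT A to D. The KO libraries lay close together, with 239, 255, 269 and 260, and inside the WT range. The means were 377 ± 164 in WT and 256 ± 12.6 in KO (SD, n = 4), with a log2 fold change of -0.46, an SE of 0.25 and a limma adjusted p of 0.328. In a two-sided exact permutation test p was 0.200, where the smallest p that 4 against 4 libraries allow is 0.0286. Without WT A the log2 fold change was -0.67, and without WT D it was -0.21, with no call in either.

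Rgr (chromosome 14, 36756866 to 36770921, minus strand) had 731, 868, 877 and 2610 normalized counts in WT A to D and 856, 1155, 1241 and 1380 in KO A to D. WT D was 3.16 times the mean of the other WT libraries, beside 3.46 for Lrat, 2.11 for Rdh5 and 2.01 for Stra6. The log2 fold change was 0.06 with an SE of 0.36 (limma adjusted p = 0.936). Without WT D it was 0.47, with a limma adjusted p of 0.0902, and it turned negative without WT A, WT B, WT C or KO D in turn.

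Rlbp1 (chromosome 7, 79024602 to 79038176, minus strand) followed another order. It had 10314, 13983, 13832 and 10666 normalized counts in WT A to D and 11294, 10494, 10277 and 10285 in KO A to D. WT B and WT C, the libraries with little mitochondrial mRNA, were high, and WT D was 0.839 times the mean of the other WT libraries. The log2 fold change was -0.19 with an SE of 0.11 (limma adjusted p = 0.345), and it was 0.0125 when WT B and WT C were left out. In the fit with the mitochondrial mRNA share as a covariate it was -0.0057, and leaving out WT B gave -0.12, leaving out WT C -0.13.

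Rgr and Rlbp1, both placed in RPE and Mueller glia, therefore did not vary together. Over the 8 libraries Pearson's r of the log2 levels was -0.39 between Rgr and Rlbp1, 0.98 between Rgr and Lrat and 0.95 between Rgr and Rdh5. These are descriptions over the same 8 libraries, in which WT D weighs heavily. The ratio of Rgr to Lrat in normalized counts stayed between 4.50 and 6.14, while the ratio of Rgr to Rlbp1 ran from 0.0621 in WT B to 0.245 in WT D. Among the KO libraries alone the order A, B, C, D from low to high was shared by Lrat, Rdh5 and Rgr. Among the WT libraries Rdh5 and Rgr had the same order, and Lrat was lowest in A and highest in D.

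Markers of the RPE moved with these genes. Of the 15 RPE markers 14 were in the table and none was at 0, 10 of the 14 were highest in WT D of all libraries, and 10 were lowest in WT A of the WT libraries. Best1, a chloride channel of the RPE, was low throughout, at 9.48 to 33.5 normalized counts, and Tyrp1, an enzyme of melanin synthesis, had 188 in WT D and 89.8 in WT A. The summed level of the list ran from 4779 to 8006 in WT and from 5377 to 6029 in KO. Ttr and Krt18 make up most of that sum, and Krt18 was highest in WT C. In limma 0 of 14 were called and 2 had an unadjusted p under 0.05. Of the 14, 11 had a negative and 3 a positive log2 fold change, with a median of -0.27. In bulk tissue, fewer cells of a type and less RNA per cell cannot be told apart. The retinae were isolated before RNA was extracted, and no label says how much RPE stayed with them in each library. With the mean log2 level of the RPE markers as a covariate the log2 fold changes were 0.78 for Lrat, 0.34 for Rdh5, -0.14 for Stra6 and 0.53 for Rgr. These are differences at an equal marker level, while most of the markers were themselves lower in the KO. The unadjusted limma p was 0.00236, 0.0201, 0.345 and 0.0181 in that order, and none was called. In that fit 4 of the 9 visual cycle genes had an unadjusted p under 0.05, beside 2385 of 17636 genes. Beyond that fit, the part of the RPE content of a library in these levels was not tested.

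Mueller glia markers showed no such rise in WT D. All 14 were in the table, and 1 was highest in WT D of all libraries. In limma 0 were called and 3 of 14 had an unadjusted p under 0.05, with 7 higher and 7 lower in the KO (median log2 fold change 0.05). The summed level of the list was 173297 in WT D, between 190162 and 227551 in the other WT libraries, and between 173925 and 189602 in KO. Glul makes up a large part of that sum, which therefore mostly follows Glul. Within the list Glul, the glutamine synthetase of Mueller glia, had 135955 and 132019 in WT B and WT C against 98453 and 81946 in WT A and WT D, high where Rlbp1 was high. Slc1a3, the glial glutamate transporter, went the other way, with 5673 and 5128 against 7156 and 7101. In all, 6 of the 14 markers were higher in both WT B and WT C than in WT A and WT D, and 5 were lower in both. Of the markers of fibroblasts, endothelium and lens none was called in limma, and 1 of 10 cone markers was called. At an unadjusted p under 0.05 there were 3 of 7, 0 of 6 and 0 of 3 in that order, beside 16.6% of all genes. The fibroblast markers had a median log2 fold change of -0.30, with 3 higher and 4 lower in the KO. The summed lens markers ran from 29.5 in KO B to 1411 in WT B and did not peak in WT D.

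**Figure D2:**
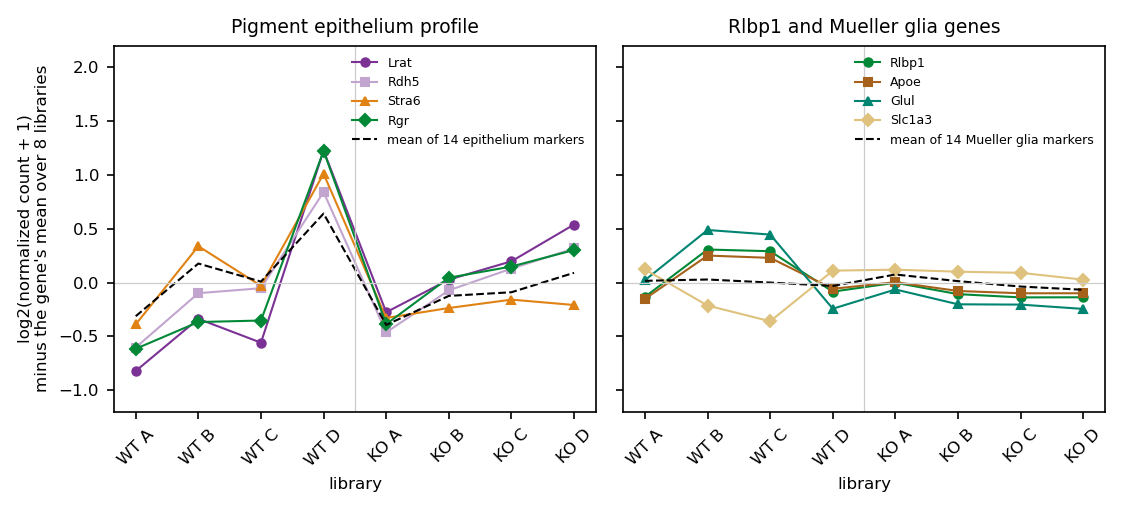
Log2(normalized count + 1) of each gene minus its mean over the 8 libraries, with the mean of the 14 RPE markers and of the 14 Mueller glia markers as dashed lines. Lrat, Rdh5, Stra6 and Rgr peak in WT D together with the RPE markers, while Rlbp1, Apoe and Glul are high in WT B and WT C and Slc1a3 is low there.

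When each gene was set against the mean log2 level of the markers of its class in the same library, the spread over the 8 libraries changed. For Rdh5 the range fell from 1.44 to 0.52 on the log2 scale, for Stra6 from 1.40 to 0.67 and for Lrat from 2.05 to 1.15. Rgr had a range of 1.84 alone, 1.12 against the RPE markers and 1.88 against the Mueller glia markers. Rlbp1 had 0.44 alone, 1.12 against the RPE markers and 0.44 against the Mueller glia markers. None of these 7 relative levels separated the genotypes in the exact permutation test, with p between 0.143 and 0.971.

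Among 12574 other genes, all those with a mean level of 100 or more, Slc6a20a, an amino acid transporter and one of the RPE markers, had the profile most like that of Lrat, Rdh5 and Stra6 over the 8 libraries (Pearson's r = 0.98). It was followed by Hsf1 (0.97), Col8a1 (0.94), Cpxm2 (0.93) and Ptgds (0.93). For the mean profile of Rlbp1 and Rgr the 5 most alike were Slc6a20a, Hsf1, Ttr, Col8a1 and Tyrp1, between 0.92 and 0.98, since Rgr varies more than Rlbp1 and sets that mean.

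The 4 photoreceptor genes were each higher in the KO in the fit of all 8 libraries, with log2 fold changes between 0.06 and 0.38 and none called. Rbp3 turned to -0.0124 with array weights and to -0.0204 without WT B. Rod markers moved in the same direction. Their summed level was 1695960 ± 175037 normalized counts in WT and 1930080 ± 68378 in KO (SD, n = 4; two-sided exact permutation p = 0.0286), with 4 of 12 at an unadjusted p under 0.05 and 0 called in limma.

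Rdh8 (chromosome 9, 20729799 to 20737413, plus strand) had 2059, 1655, 2032 and 2164 normalized counts in WT A to D and 2382, 2565, 2810 and 2496 in KO A to D. The lowest KO library stood above the highest WT library. The means were 1978 ± 222 in WT and 2563 ± 181 in KO (SD, n = 4), a fold of 1.30 with a 95% interval of 1.12 to 1.51. The unadjusted limma p was 0.00345 and the adjusted p 0.297, and the two-sided exact permutation p was 0.0286, the smallest possible. The difference failed the correction over all genes and was higher in 4 of 4 KO libraries. It was 0.28 on the log2 scale when WT B and WT C were left out and 0.29 with the mitochondrial mRNA share as a covariate.

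Rdh12 (chromosome 12, 79255647 to 79269440, plus strand), which acts on the same substrate as Rdh8, had 9510, 9103, 11220 and 9142 normalized counts in WT A to D and 10727, 10510, 11348 and 11218 in KO A to D. WT C lay inside the KO range and the other 3 WT libraries below it. For Rdh12 the log2 fold change was 0.17 with an SE of 0.08 (limma adjusted p = 0.303). The interval of that difference ran from -0.01 to 0.35.

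Abca4 (chromosome 3, 121838092 to 121973772, plus strand) had 88883, 72503, 84239 and 85959 normalized counts in WT A to D and 87887, 88003, 97681 and 95673 in KO A to D. WT A alone overlapped the KO range. KO exceeded WT by 0.16 on the log2 scale with an SE of 0.09 (limma adjusted p = 0.328), and by 0.0948 without WT B, 0.0960 after quantile normalization and 0.0758 with array weights.

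Rbp3 (chromosome 14, 33675960 to 33686173, plus strand) had 244160, 194055, 243662 and 239727 normalized counts in WT A to D and 229745, 231096, 255542 and 240882 in KO A to D. WT B was low and the other libraries of both genotypes intermixed. KO exceeded WT by 0.06 on the log2 scale with an SE of 0.10 (limma adjusted p = 0.727). WT B also had the lowest Rdh8, Rdh12 and Abca4 of all libraries. With the mitochondrial mRNA share as a covariate the log2 fold changes were 0.29 for Rdh8, 0.24 for Rdh12, 0.0928 for Abca4 and 0.00106 for Rbp3, none of them called.

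**Figure D3:**
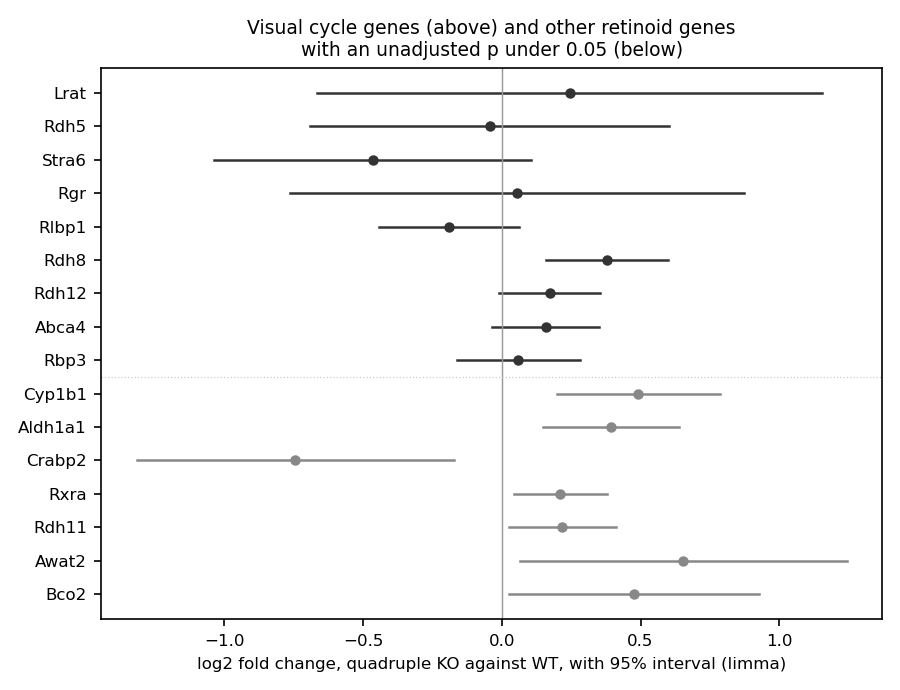
Log2 fold change of KO against WT with its 95% interval from limma for the 9 visual cycle genes (above the dotted line) and for 7 other retinoid genes that were chosen for an unadjusted p under 0.05 (below it). The intervals of Lrat, Rgr, Rdh5 and Stra6 are the widest of the 9, and that of Rdh8 lies above 0.

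To ask whether the photoreceptor genes differed beyond the rod markers, each was set against their mean log2 level. Relative to the 12 rod markers Rdh8 was higher in the KO by 0.27 on the log2 scale, with no overlap (two-sided exact permutation p = 0.0286). The gap was narrow, with the highest WT value at -4.930 in WT D and the lowest KO value at -4.919 in KO A. WT B and WT C were the lowest, at -5.215 and -5.197, and WT A had -4.986. With the median of the markers in place of the mean the difference was 0.22 and p was 0.0571 in the exact permutation test. Rdh12, Abca4 and Rbp3 differed from the rod markers by 0.06, 0.05 and -0.05, with exact permutation p of 0.114, 0.571 and 0.457. Rdh8 was the 1 of 11 relative levels computed, over all the genes, that separated the genotypes. Its own level also separated them, so the relative level is no separate evidence. Over all genes tested, 9.74% had levels without overlap between the genotypes.

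**Figure D4:**
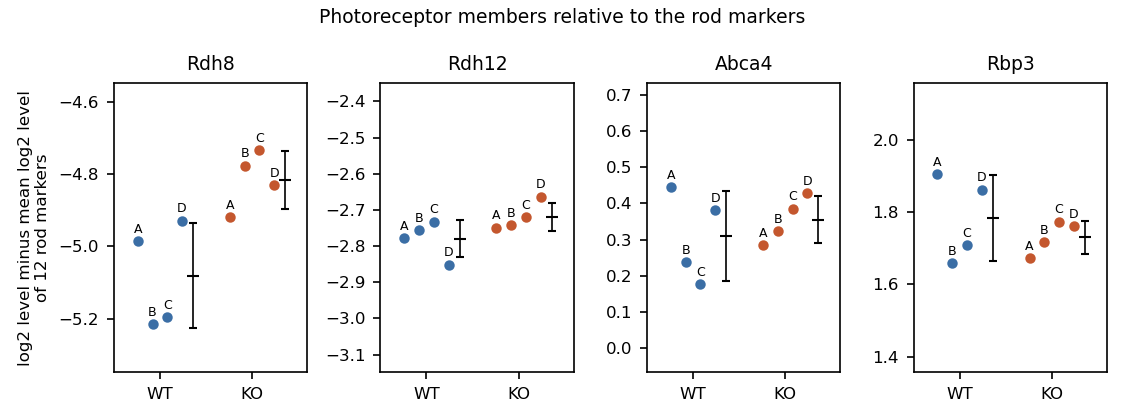
Log2 level of Rdh8, Rdh12, Abca4 and Rbp3 minus the mean log2 level of 12 rod markers in each library (points, lettered A to D), with the mean and SD of each genotype (n = 4). The 4 panels span the same height on the log2 scale, and Rdh8 is the gene whose KO values all lie above its WT values.

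Ratios within a library were taken for 9 pairs. The ratio of Rdh8 to Rbp3 was between 0.00834 and 0.00903 in WT and between 0.0104 and 0.0111 in KO, and that of Rdh8 to Abca4 between 0.0228 and 0.0252 in WT and between 0.0261 and 0.0291 in KO. The ratio of Abca4 to Rbp3 was 0.360 ± 0.0117 in WT and 0.386 ± 0.00769 in KO (SD, n = 4). Each of these 3 was higher in every KO library (two-sided exact permutation p = 0.0286, not adjusted). Rdh8 alone also separated the genotypes, so its ratios to Rbp3 and Abca4 are no separate evidence. The ratio of Rdh8 to Rdh12 overlapped, at 0.204 ± 0.0273 and 0.234 ± 0.0137 (exact permutation p = 0.114). Stra6 relative to Lrat was 1.87 ± 0.454 in WT and 1.13 ± 0.218 in KO (exact permutation p = 0.0571), so the groups overlapped.

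The gene most like the mean profile of the 4 photoreceptor genes was Rdh11, another retinol dehydrogenase (Pearson's r = 0.98 over the 8 libraries), followed by Ccpg1, Slx4, Eif1 and Cby1 with r of 0.98 each. The libraries share their normalization, and the low values of WT B weigh in each of these.

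The rest of retinoid metabolism was read from a list of 47 genes of retinoid transport, conversion and retinoic acid signaling, of which 36 were in the table, 35 were tested and 11 were not analysed here. None of the 35 was called in limma. At an unadjusted p under 0.05 there were 7 of 35, 6 higher and 1 lower in the KO, and 9 of 35 had no overlap between the genotypes, to be read against the 16.6% and 9.74% of all genes. The count moved with single libraries, as did that of all genes. Without WT D it was 13 of 36, beside 6045 of 17616 genes, and without WT A 11 of 35, beside 4688 of 17628. Without KO A it was 4 of 36, beside 1830 of 17637 genes, and without KO C 4 of 36, beside 1394 of 17682. The median log2 fold change of the list was -0.11.

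Of the 11 transport and storage genes tested, 4 had a positive and 7 a negative log2 fold change (median -0.21), and 1 in each direction had that unadjusted p. Crabp2, a retinoic acid-binding protein, had a log2 fold change of -0.74 at low levels, 23.6 ± 7.13 normalized counts in WT and 13.3 ± 0.774 in KO (SD, n = 4), and it had -0.47 when WT B and WT C were left out. Awat2, an acyltransferase, had 0.65 on the log2 scale, also at low levels.

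Of the 13 enzymes and opsins, Rdh11 had a log2 fold change of 0.22 and Bco2, a carotenoid-cleaving oxygenase, 0.48, and no other passed the unadjusted p. Of the 13, 8 had a positive and 5 a negative log2 fold change. Bco2 fell to 0.18 when WT B and WT C were left out, to 0.19 with the mitochondrial mRNA share as a covariate and to 0.23 with array weights. Rdh11 had 1388, 1168, 1455 and 1435 normalized counts in WT A to D and 1541, 1522, 1639 and 1614 in KO A to D, without overlap. Of the 11 retinoic acid genes tested, 4 had a positive and 7 a negative log2 fold change (median -0.11), and 3 of the positive ones had an unadjusted p under 0.05. Aldh1a1, which oxidizes retinal to retinoic acid, had 866, 628, 791 and 720 in WT and 968, 910, 1069 and 982 in KO, a log2 fold change of 0.39 that was 0.26 with array weights. Cyp1b1, a cytochrome P450, had 285, 251, 220 and 322 in WT and 419, 352, 374 and 359 in KO, a log2 fold change of 0.49, which was 0.31 when WT B and WT C were left out and 0.32 with the mitochondrial mRNA share as a covariate. Rxra, a nuclear receptor for retinoids, had 0.21. The limma adjusted p of each of these 7 genes was 0.301.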

How the data were processed

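Total RNA of 8 retina libraries, 4 WT and 4 quadruple KO, was sequenced. The authors used Trim Galore 0.6.7 for trimming, aligned them with STAR 2.7.9a to GRCm39, estimated counts with Salmon 1.5.2 and deposited normalized counts from DESeq2 1.32.0, per the submitters' processing notes. The annotation release is not given in the sources used here. The deposited table also holds the authors' fold changes and p-values, which were not used. Genotypes came from the library names.

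The visual cycle genes, the marker lists and the wider retinoid list were chosen with earlier results of these data known. Values were put on the scale log2(normalized count + 1), which understates the change of low genes, and the 17636 genes whose mean reached 10 were tested with limma 3.58.1 in R 4.3.3 (eBayes with trend, no covariate) with Benjamini-Hochberg adjustment. A count model had been planned for raw counts and did not apply. Single values were compared by two-sided exact permutation tests over 70 assignments. Summaries and plots used scipy 1.17.1, pandas 2.3.3, numpy 2.4.6 and matplotlib 3.10.9 in Python 3.11.15. The fits were tested on simulated data. All 9 genes found were tested and named, with the retinoid genes at an unadjusted p under 0.05 and the 5 genes most alike per profile. A gene of the retinoid list is not reported here and enters no count of that list. Positions and exon lengths are from GENCODE M39.

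Read depth was not derived. The low values were searched for a spacing of 1 read, but only 30.4% to 67.3% of them per library fell on whole steps, and the spacing found for 1 library changed with the lower end of the search. Counting error is therefore unknown and no floor was computed. The alternatives were other normalizations, filters, pseudocounts and variance models, array weights, the letters A to D as a block, covariates, WT without B and C, and each library left out.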

Additional observations from a re-analysis of the deposited data

Results flagged for a closer look

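Within each genotype, 19 series of values were checked for a library far from the other 3, which makes 38 groups, and 5 stood out. Chance alone marks about 1 in 20 groups. Lrat had 494 normalized counts in WT D, where the other WT libraries had at most 167. Rgr had 2610 normalized counts in WT D, where the others had at most 877. Rbp3 had 194055 normalized counts in WT B, below the other WT libraries. Awat2 had 10.3 normalized counts in WT C, also below the others. Rxra had 2540 normalized counts in KO C, above the other KO libraries.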

How the results depend on the processing

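None of the 9 visual cycle genes was called under any of 21 alternatives. Rdh8 kept its direction in 21 of 21, between 0.28 and 0.42 on the log2 scale, with an unadjusted p under 0.05 in each and a lowest limma adjusted p of 0.0738. Stra6, Rdh12 and Abca4 also kept their direction in 21 of 21, with Stra6 between -0.67 and -0.14 and Abca4 between 0.0758 and 0.19. Over all genes, 77 were called, 143 with array weights, and between 54 and 89 with 1 library left out. Of the wider retinoid list 0 were called, 1 with array weights (Cd36) and 0 with any 1 library left out.

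With the letters as a replicate block, 51 genes were called in all. No source says that a letter marks a shared animal or batch, and the deviations of libraries with the same letter correlated at -0.01, -0.11, 0.10 and 0.05 for A to D. The block changed no call among the visual cycle genes or the retinoid list.

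Some directions turned, and the cause was not tested. The log2 fold change of Lrat was -0.15 with the mitochondrial share as a covariate and -0.0805 when WT B and WT C were both left out. That of Rdh5 was 0.20 with array weights, 0.34 with the RPE marker level as a covariate, and between -0.25 and 0.23 with 1 library left out (0.23 without WT D, 0.10 without KO A). That of Rgr was -0.33 with the mitochondrial share and -0.28 without WT B and WT C together, and -0.14, -0.06, -0.05 and -0.04 without WT A, WT B, WT C and KO D, in a range of -0.14 to 0.47. That of Rlbp1 was 0.0125 without WT B and WT C together. That of Rbp3 was -0.0124 with array weights, -0.0170 without WT B and WT C together and -0.0204 without WT B, the lowest of a range up to 0.0900. With the median of the rod markers, the relative level of Abca4 was -0.0028 and that of Rdh8 0.22 with an exact permutation p of 0.0571. With the RPE marker level as a covariate Lrat had 0.78 and Rgr 0.53, neither called.

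The precision was limited by 4 libraries per genotype and an unknown read depth. The interval of Lrat, for example, spanned -0.66 to 1.15 on the log2 scale.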
